A study of Danio rerio with 2 samples.

Results

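Zebrafish embryos of 24 h post-fertilization, wild type and taken whole, were used to map where Tfap2a binds. The regions described here carried more than 1 local maximum of enrichment (a summit) and stood alone in the deposited peak list. Overlapping entries of the peak list were joined into distinct regions. A region entered the set when it held 2 or more summits and had no other region of the list within 5000 bp on either side. On chromosomes 1 to 25, leaving out chromosome 4 from position 27000000 on, 1321 of 18037 regions met this rule, with 2760 summits between them. The regions were thus chosen by the summits and positions of the same list, so summit number, spacing, width and strength are given as descriptions with no test. The nearest comparison set is formed by the 12172 solitary regions with 1 summit, and a further 619 regions had several summits and a neighbour within 5000 bp.

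The experiment had 1 condition. Its 2 samples were untreated wild-type embryos, each a pool of whole embryos dissociated to single cells, so binding in neural crest, epidermis and every other tissue is added together. Antibody-directed nuclease cleavage (CUT&RUN) released the DNA beside Tfap2a, and peaks had been called against an IgG control. The authors deposited 1 list, with no column per sample and no read counts. Its record names all carry 1 library code and give the stage as 22 somites, which matches neither sample title, so it is not known whether the list stands for 1 sample or both, and the stage of 24 h is that of the sample records. No value therefore has an error between embryos, the depth behind a summit is unknown, and intervals below are 95% intervals over regions that cover counting error only.

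Tfap2a belongs to the TFAP2 family of transcription factors, which bind GC-rich palindromic motifs as homo- or heterodimers. In zebrafish the *tfap2a* gene is needed for the neural crest, from which much of the facial skeleton and the pigment cells arise, and it also acts in the epidermis. A regulatory element can hold several copies of a motif, and fragments from neighbouring bound positions then overlap in a CUT&RUN library. The list gives no gene names. With neither a genome nor gene models on its coordinates used here, no motif, gene or sequence is assigned to a summit. Positions are those of the list, counted from 1, and carry no build.

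Several summits were the exception among solitary regions. They were found in 1321 of 13493 solitary regions, or 9.79% (Wilson 95% interval 9.30 to 10.3%), and in 619 of 4544 regions that had a neighbour within 5000 bp, or 13.6% (12.7 to 14.7%). Within the solitary set, 1225 regions (92.7%) had 2 summits, 84 (6.36%) had 3 and 9 had 4, while 2 regions had 6 summits and 1 region had 10. In each of the 1321 regions the records shared 1 start, 1 end and 1 record number, and their letters ran without a gap from the first, so the summits of a member were those of 1 enriched stretch and no summit letter was missing between listed ones.

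The distance to the nearest other region had a median of 16199 bp (quartiles 8576 and 35521 bp) for members and 21105 bp (10292 and 48568 bp) for solitary regions with 1 summit. The member just inside the limit, chr13:3032232-3032592, lay 5020 bp from the next region and had summits with fold enrichments of 7.92 and 7.43, separated by 184 bp. The region just outside it, chr21:34618581-34618803, lay 4987 bp from its neighbour and had 2 summits of 7.74 each. Solitary is meant relative to the deposited list, in which many record numbers are absent. Both adjacent record numbers were listed for 355 members (26.9%), 1 of them for 635 (48.1%) and neither for 331 (25.1%). The corresponding shares were 23.1%, 50.2% and 26.7% of solitary regions with 1 summit. Where the absent records lay could not be read from the list.

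Neighbouring summits most often lay near 100 bp apart. The 1439 distances between neighbouring summits had a median of 113 bp (95% interval of the median 110 to 116 bp) with quartiles at 89.5 and 152 bp, and 5% of them were at or below 63 bp. Among classes of unequal width, the class from 80 to below 100 bp held the most distances, 317 (22.0%). The class from 100 to below 120 bp held 275 (19.1%). The class from 120 to below 160 bp, which is wider than both, held 313 (21.8%). Only 48 distances (3.34%) were below 60 bp and 52 (3.61%) reached 300 bp or more. The smallest was 21 bp, and how close summits can lie and still be listed apart is not known. Distances also grew with region width. They are distances between listed summits, and no preferred distance between bound sites follows from them. In the crowded regions with several summits, the median of 734 distances was 130 bp (123 to 135 bp), wider than in the solitary ones and given without a test.

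**Figure D1:**
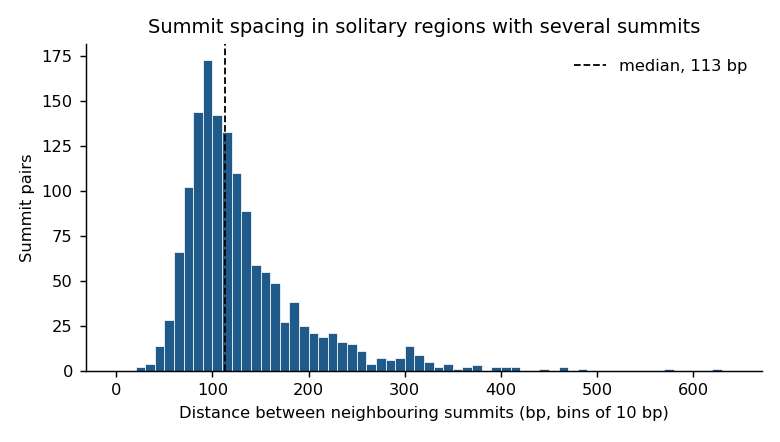
Histogram of the 1439 distances between neighbouring summits (x axis, in bp, bins of 10 bp; y axis, number of summit pairs) in the 1321 solitary regions with several summits; the dashed line marks the median of 113 bp. Distances pile up around 80 to 120 bp and fall away slowly toward the widest, 626 bp.

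The closest summits belonged to chr17:36082336-36082596, where 21 bp separated a summit of 6.58-fold from one of 7.78-fold. At the other extreme, chr13:27226997-27227993 held 3 summits of 5.55-, 7.93- and 6.52-fold, and the second and the third were 626 bp apart. The next widest distances were each found in a region with 2 summits. In chr2:40121534-40122304 the summits lay 572 bp apart with fold enrichments of 9.54 and 7.94, and in chr22:16783926-16784539 they lay 480 bp apart with 5.76 and 9.17. In chr17:24265237-24265824 the distance was 467 bp (5.76 and 7.12), and in chr17:29130402-29130977 it was 460 bp (5.04 and 10.6). The main summits of these 5 widely spaced regions ranked between 3937 and 8613 by fold enrichment among the 13493 solitary regions, so none of them was among the strongest.

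Members were wide. Their median width was 309 bp (quartiles 249 and 378 bp, range 133 to 2094 bp), against 179 bp (137 and 230 bp, range 92 to 615 bp) for solitary regions with 1 summit. In the 1225 regions with 2 summits the median width was 302 bp and the median distance between the summits 110 bp. The main summit lay a median of 90 bp from its own end of the region and the side summit 73 bp from its end, while the summit of a region with 1 summit lay a median of 84 bp from either end. The main summit was the one farther from its end in 734 of these regions, the side summit in 472, and 19 were even. The flanks of a 2-summit region were thus of about the size of those of a 1-summit region, and the added width was close to the distance between the summits.

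The narrowest member, chr20:29008280-29008412, spanned 133 bp and was also among the weakest, with summits of 3.50- and 4.10-fold set 43 bp apart. With width, the distance between 2 summits grew from a median of 82.5 bp in regions over 150 and up to 200 bp wide to 118 bp in those over 300 and up to 350 bp and 193 bp in those over 450 and up to 500 bp. As a share of the width it stayed between 36.4% and 44.3% over the classes from over 150 to 500 bp. In the small classes beyond, it was 32.6% (over 100 and up to 150 bp, 5 regions) and 43.0% (over 500 and up to 550 bp, 23 regions). The widest classes had 56.1% (over 550 and up to 600 bp, 12 regions) and 63.9% (over 600 and up to 650 bp, 7 regions).

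The main summit of a region is here the record with the highest score (−log10 q multiplied by 10 and cut to a whole number), and the other records are side summits. Across members the main summit had a median fold enrichment of 9.75 (quartiles 7.99 and 12.2, range 4.10 to 42.8) and a median −log10 q of 14.2. The strongest side summit had a median fold enrichment of 7.19 (6.09 and 8.98, range 3.33 to 26.4) and a median −log10 q of 8.62. A side summit had to be listed as a record of its own, so shoulders without a record could not enter. Listed side summits could be faint, and a member on chromosome 7 held a side summit of 2.63-fold. The strongest side summit was at least 3.33-fold in every member. The side summit's fold enrichment reached a median of 0.802 of the main summit's (95% interval of the median 0.790 to 0.816, quartiles 0.667 and 0.909). It was at least 0.5 of it in 1218 members (92.2%; Wilson 95% interval 90.6 to 93.5%), at least 0.75 in 801 (60.6%; 58.0 to 63.2%) and at least 0.9 in 374 (28.3%; 25.9 to 30.8%). In 48 members both summits had the same fold enrichment and −log10 q. In 488 members (36.9%) the side summit alone was stronger than the median solitary region with 1 summit, which had a fold enrichment of 8.10. That median covers regions of all widths, most of them narrower than members. In 50 bp width classes from over 150 to 500 bp, the median side summit was 6.61 to 7.87. Regions with 1 summit had medians of 8.28 to 11.9 there, higher than the side summit in every class.

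**Figure D2:**
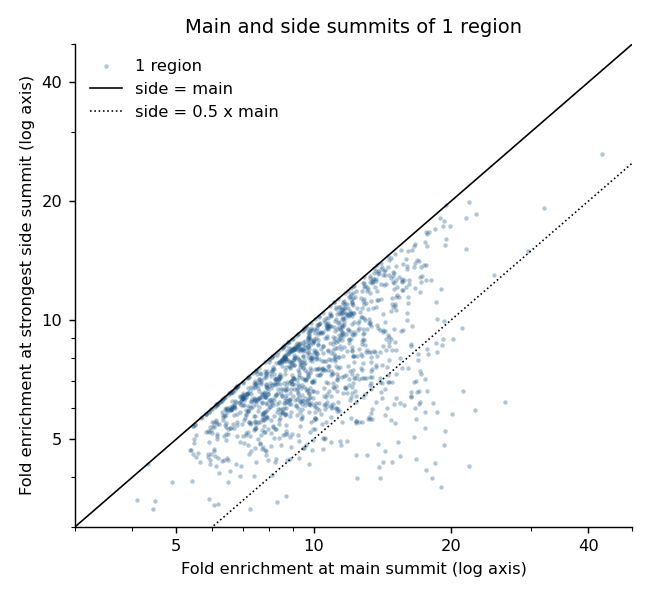
Fold enrichment at the strongest side summit (y axis, log scale) against that at the main summit (x axis, log scale) of the 1321 members, 1 point per region; the solid line marks equal values and the dotted line a side summit at 0.5 of the main one. Most points lie between the lines, and 1218 of 1321 are on or above the dotted line.

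The 2-summit members were grouped by the quotient of side to main fold enrichment. Among the 2-summit members, the side summit reached at least 0.9 of the main one in 337, from 0.5 to below 0.9 in 791, and less than 0.5 in 97. The near-equal pairs had a median main fold enrichment of 8.72 (quartiles 7.01 and 10.8), a side fold enrichment of 8.38 (6.68 and 10.3) and a spacing of 98 bp (77 and 130 bp). The intermediate pairs stood at 9.79 for the main summit, 7.01 for the side summit and 110 bp. The unequal pairs had a stronger main summit, 14.9 (13.2 and 17.1), a weaker side summit, 5.78 (4.93 and 6.63), and a wider spacing, 146 bp (118 and 214 bp). Region width differed too, with medians of 289, 301 and 343 bp in the near-equal, intermediate and unequal pairs. Spacing grew with width and was not matched for it here. A high main summit and a weak side summit both make the quotient low. The differences in strength between the kinds thus follow in part from the grouping and are a description. The error of a quotient is not known, so how many near-equal pairs differ by more than that error cannot be told.

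In 2-summit regions, side summits were in general weaker at wider spacing, though not beyond 300 bp. Over the spacing classes of below 60, 60 to 80, 80 to 100, 100 to 120, 120 to 160, 160 to 200, 200 to 300 and 300 bp or more, which held 46, 160, 277, 239, 262, 102, 102 and 37 regions, the side summit had a median of 0.901, 0.889, 0.828, 0.773, 0.752, 0.751, 0.707 and 0.722 of the main fold enrichment. The median side fold enrichment in the same order was 8.99, 8.40, 7.78, 7.08, 6.87, 6.36, 6.18 and 6.35. The median main fold enrichment was 10.2, 9.45, 9.84, 9.90, 9.71, 8.91, 9.71 and 9.54, with no steady course. Over the 1225 regions, spacing and quotient correlated at Spearman's rho = -0.28 (Pearson's r = -0.25), and spacing and main fold enrichment at rho = -0.03. Main and side fold enrichments correlated at rho = 0.61. These correlations are across regions of 1 list whose summits share reads and local background, and are given as a description. Region width, with which spacing grew, was not matched over the spacing classes. Shoulders without a record could not enter, so weak side summits close to a main one may be missing.

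The most lopsided member was chr8:48346915-48347257. Its main summit had a fold enrichment of 21.9, which ranked 103 among the 13493 solitary regions, and its side summit, 170 bp away, had 4.29, or 0.196 of it.

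The 84 regions with 3 summits had a median width of 463 bp and a median spacing of 128 bp. Their main summit was the middle one in 28, or 33.3% (Wilson 95% interval 24.2 to 43.9%), the one at the lower coordinate in 23 and the one at the higher coordinate in 33, so no place in the row stood out. Their weakest summit had a median of 0.660 of the main fold enrichment, with a range from 0.187 to 0.992. Rows were moderately even, the shorter of the distances being a median of 0.686 of the longer one (quartiles 0.513 and 0.859). The 9 regions with 4 summits were 465 to 714 bp wide, and their main summit ran from 6.22-fold in chr20:24182087-24182678 to 16.3-fold in chr13:19044957-19045670. Their weakest summit stood between 0.297 and 0.827 of the main one.

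The 3 members with the most summits were wider than every other member and differed from one another in shape. The region chr7:58346031-58348124 was the widest of all, 2094 bp, and held 10 summits. Counted from the first summit, they lay at 0, 320, 510, 664, 851, 1036, 1221, 1404, 1638 and 1864 bp, so 6 of the 9 distances fell from 150 to below 200 bp. Their fold enrichments in the same order were 6.50, 8.69, 2.75, 5.38, 5.03, 2.63, 4.81, 8.47, 10.2 and 9.73. Enrichment was thus high toward both ends and low in the middle. The nearest other region lay 505555 bp away, the largest such distance among members, and the region ranked 115 by score but 4314 by fold enrichment among solitary regions.

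In chr24:12238691-12240111 the strongest of the 6 summits was at the lower end and the weakest at the upper end. The first had a fold enrichment of 24.8 and a score of 4562, the highest score of any member, and those after it had 12.2, 13.0, 8.67, 8.25 and 5.03. They were spaced by 153 to 418 bp, and the next region lay 8298 bp away. In chr20:6460660-6462374 strength rose and fell along the row, with fold enrichments of 13.4, 4.18, 13.8, 17.4, 9.90 and 12.0 at distances of 177 to 361 bp, and the score of the main summit was 4154. These ranked 6 and 7 by score among all solitary regions, and 44 and 478 by fold enrichment.

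**Figure D3:**
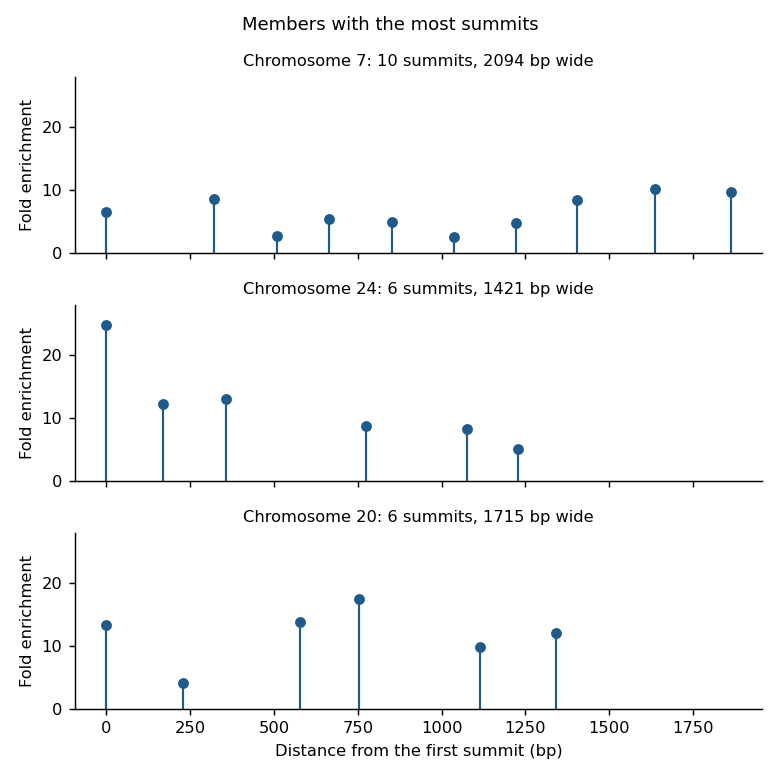
Fold enrichment at each summit (y axis) against the distance from the first summit in bp (x axis) for the 3 members with 6 or more summits, 1 panel per region and 1 stem per summit. The 10 summits on chromosome 7 lie between 2.63 and 10.2, those on chromosome 24 run from 24.8 at the first to 5.03 at the last, and those on chromosome 20 vary between 4.18 and 17.4.

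The other members with the highest scores had few summits. In chr24:38404538-38404979, summits of 26.4- and 42.8-fold lay 238 bp apart, and both values were the highest of their kind among members. The region chr2:14338554-14339377 descended over 3 summits, from 32.0 through 19.2 to 5.98, with distances of 313 and 229 bp. In chr15:18404730-18405206 the summits had 9.56 and 21.1 and lay 205 bp apart, and the next region was 5483 bp away. Each of the 5 highest-scoring members therefore had all its neighbouring summits more than 150 bp apart, wider than the median of 113 bp. These 5 members were 442 to 1715 bp wide, against a median of 309 bp for all members, and spacing grew with width. Over the 2-summit members, main fold enrichment and spacing correlated at only rho = -0.03.

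As a whole, members were stronger than solitary regions with 1 summit, but not by the weighted medians at equal width. The median fold enrichment was 9.75 at the main summit of members and 8.10 in regions with 1 summit (quartiles 6.05 and 11.0), and the median −log10 q was 14.2 and 9.81. Both groups overlapped widely. Within width classes of 50 bp, over the 7 classes from over 150 to 500 bp that held at least 20 regions of each kind (1233 members and 8056 regions with 1 summit), the medians weighted by the number of members were 9.83 and 10.1, and members had the higher class median in 4 of the 7. The difference, members minus regions with 1 summit, ran from -1.78 in the class over 400 and up to 450 bp to 0.27 in the class over 450 and up to 500 bp. For −log10 q the weighted medians were 14.4 and 14.9. At equal width the weighted medians were thus slightly lower in members, with a difference of -0.28 in fold enrichment. The member value is that of the best of 2 or more summits, set against the only summit of the other regions. The width of a member also includes the distance between its summits, so equal width does not mean equally broad single summits.

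The share of solitary regions with several summits rose steeply with width, from 2.57% (92 members of the class over 150 and up to 200 bp; Wilson 95% interval 2.10 to 3.15%) through 17.7% (over 250 and up to 300 bp; 15.9 to 19.7%) and 44.6% (over 350 and up to 400 bp; 39.5 to 49.8%) to 71.6% (over 450 and up to 500 bp; 61.8 to 79.7%). Width and summits come from the same peak calling, so this rise is a description. At the same time, 27 solitary regions over 450 and up to 500 bp wide had a single summit.

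**Figure D4:**
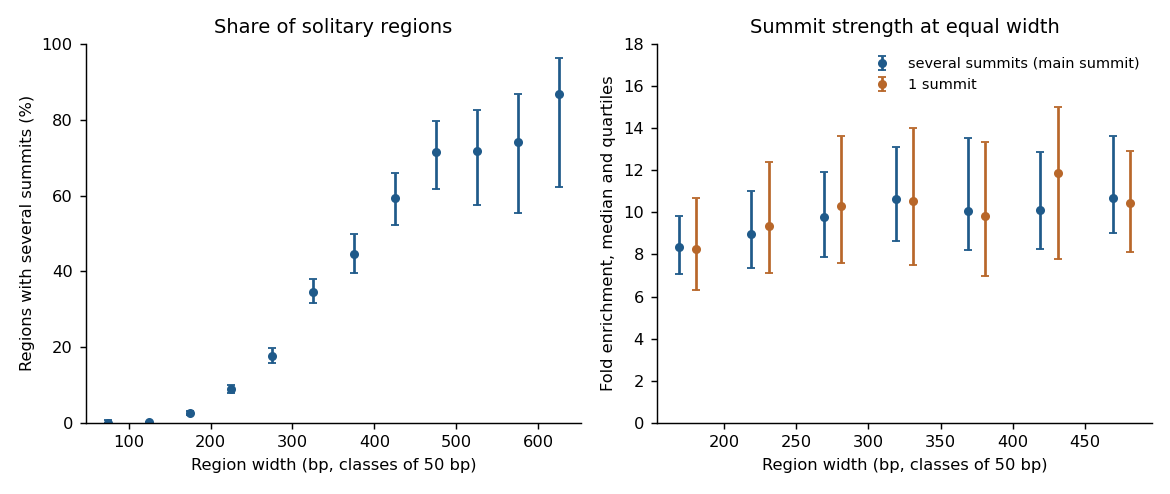
Left, share of solitary regions with several summits (y axis, %, with Wilson 95% intervals) by region width (x axis, bp, classes of 50 bp). Right, median fold enrichment with quartiles (y axis) at the main summit of members and at the summit of regions with 1 summit, for the 7 classes with at least 20 regions of each; the share rises from 2.57% to 71.6% over these classes, while the medians of both kinds stay between 8.28 and 11.9.

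Several summits were rare among the weakest solitary regions, also within a width range, where their share did not rise steadily with strength. When solitary regions were divided into 5 classes of near-equal size by the −log10 q of the main summit, several summits were found in 0.779% of the lowest class, 7.22% of the next, then 11.7%, 14.1% and 15.1% of the highest. Among regions over 200 and up to 350 bp wide the shares in the same classes were 2.01%, 15.8%, 20.0%, 20.1% and 14.1%. At this width the highest class (222 of 1577 regions; Wilson 95% interval 12.4 to 15.9%) was thus below the class before it (242 of 1206; 17.9 to 22.4%). Width still varied within this range, and the share of members rose from 8.95% to 34.7% over its 50 bp classes. Because the classes of strength are set by the same values that find summits, this is a description. At the top of the list, members made up 3 of the 10 solitary regions with the highest score, 19 of the 100 highest (Wilson 95% interval 12.5 to 27.8%) and 171 of the 1000 highest (17.1%; 14.9 to 19.6%). Their share of all solitary regions was 9.79%, and the counts at the top were not matched for width. The score of a member is also that of its best summit.

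Against the crowded regions with several summits, which shared the rule except for the neighbour, members had a similar width (median 309 and 306 bp) and a similar quotient of side to main summit (0.802 and 0.799). The main fold enrichment was lower in the crowded regions, with a median of 7.75 (95% interval of the median 7.44 to 8.07) against 9.75 (9.55 to 9.93) in members, whereas the median −log10 q was 14.9 and 14.2. The crowded regions thus had a lower fold enrichment at about the same −log10 q.

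The chromosome was not used to tell several summits from 1 and could be tested, with each region of the 1 list counted as a unit. Region width and strength, with which the share of members also changed, were not adjusted for between chromosomes. Members were found on all 25 chromosomes, from 29 on chromosome 25 to 86 on chromosome 7. Their share of solitary regions ranged from 7.48% on chromosome 16 (43 of 575; Wilson 95% interval 5.60 to 9.92%) to 13.5% on chromosome 1 (79 of 587; 10.9 to 16.5%). This variation did not pass the threshold of 0.05 (chi-square test of 2 by 25 counts, 24 degrees of freedom, p = 0.0609; Cramér's V = 0.0513). The result lay close to the threshold. With 2000 bp as the limit for solitary regions the chi-square test gave p = 0.0223, and with 10000 bp it gave p = 0.039, both past the threshold. Without chromosome 1 the chi-square test gave p = 0.274, a setting that was added once the data had been seen. Leaving out the chromosome with the highest share tends to raise p, so no particular role of chromosome 1 follows. The median main fold enrichment of members ran from 8.72 on chromosome 4 to 10.8 on chromosome 2, and their median summit spacing from 102 bp on chromosome 9 to 129 bp on chromosome 1.

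**Figure D5:**
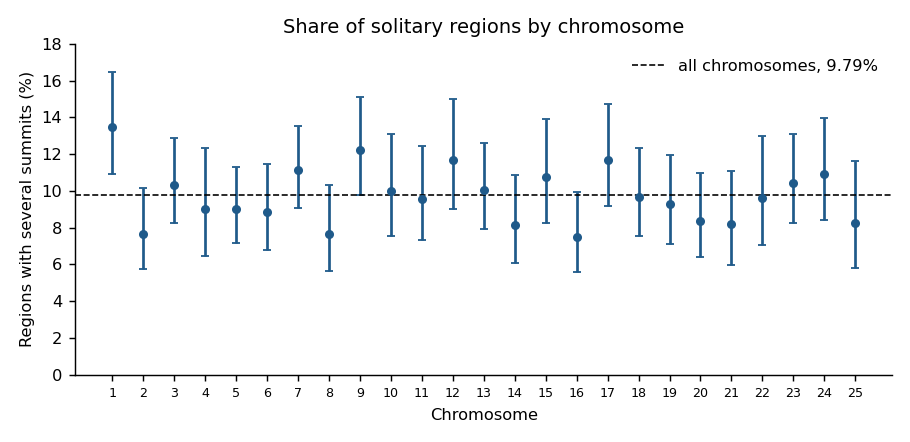
Share of solitary regions with several summits (y axis, %, with Wilson 95% intervals) on each chromosome (x axis); the dashed line marks the share over all 25, 9.79%. Chromosome 1 is highest at 13.5% and chromosome 16 lowest at 7.48%.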

How the data were processed

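Per the paper's methods, the authors used Trim Galore for trimming, Bowtie2 for mapping and MACS2 for peaks over IgG. The sample records name danRer10 and danRer11, the paper danRer11, and the list no build. The deposited list gives the authors' score (10 times −log10 q, whole part, in all 21059 records), fold enrichment, −log10 q (the deposited q-value) and summit. Fold enrichment is taken as listed, at the summit and over the background used in the peak calling. Whether samples were pooled is not given in the sources used here. Here records sharing at least 1 bp were merged, and the main summit was the record with the highest score, then fold enrichment. Named regions follow a rule: most summits, 5 highest scores, 5 widest spacings, widest, narrowest and at the limit. The 9 regions with 4 summits, the closest summits and the most lopsided pair were added after their values were seen. The rule, lists and tests were chosen with earlier results of these data known. Alternatives were other limits for solitary regions, merging within 100 bp, a score threshold, the main summit by fold enrichment, listed adjacent numbers and chromosome 4 in full. The planned search for the TFAP2 motif and for transcription starts was not run, for want of a genome on the list's coordinates. The merging steps were tested on simulated data. Python 3.11.15, numpy 2.4.6, pandas 2.3.3, scipy 1.17.1 and matplotlib 3.10.9 were used.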

Additional observations from a re-analysis of the deposited data

Results flagged for a closer look

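Outside the chromosome stretches compared above, the list also held regions with several summits. On unplaced scaffolds 31 of 280 solitary regions had several summits (11.1%), and on chromosome 4 from position 27000000 on 7 of 105 did (6.67%). Among all 476 regions on unplaced scaffolds, solitary or not, the most summits in 1 region was 10, as many as in the chromosome 7 member. On the mitochondrial genome 4 of 5 regions had several summits, up to 8 in 1 region, with a median main fold enrichment of 2.31, and none of the 5 was solitary. These were noted because they lie in parts of the list that no comparison used, and no cause was tested.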

How the results depend on the processing

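The number of members, 1321, stayed within 1.5 times of itself with limits of 2000 bp (1604) and 10000 bp (913), with merging within 100 bp (1330) and with chromosome 4 in full (1328). Keeping only records scoring above the median left 578, with a median spacing of 102 bp, a side-to-main quotient of 0.868 and a main fold enrichment of 11.8, as the filter removes weak side summits by construction. Requiring both adjacent record numbers left 355, with a quotient of 0.830. Among regions over 150 and up to 450 bp wide, an alternative added after seeing the data, the spacing was 107 bp. The chi-square test over chromosomes gave p = 0.0223 with the limit of 2000 bp and p = 0.039 with that of 10000 bp. With records above the median the chi-square test gave p = 0.612. The cause of these shifts was not tested. Other settings left the medians inside their 95% intervals. Leaving out a replicate was not run on a list without sample columns. No paired analysis was possible because only 1 group exists and the 1 list names no sample. The motif and transcription start settings were not run. Without read counts, neither the depth behind a summit nor the error of a quotient is known.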

Other observations

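The side summit of a 2-summit region lay at the lower coordinate more often than at the higher one, although coordinate order has no meaning for binding. Leaving out equal summits, it did so in 660 of 1177 members, or 56.1% (Wilson 95% interval 53.2 to 58.9%), and on 19 of 25 chromosomes in over 50% of members. In the crowded 2-summit regions, which share no region with the members, the count was 294 of 527, or 55.8%. It was 61.9% of the 97 members whose side summit was below 0.5 of the main one (51.9 to 70.9%) and 51.2% of 289 with a side summit of at least 0.9 that was not equal (45.5 to 56.9%). In regions with 1 summit the summit lay above the centre in 44.9% of the 12080 counted out of 12172 (44.0 to 45.8%), that is, toward the lower coordinate in most. The main summit of 2-summit members was more often at the higher coordinate. That is an order of summits and not a position relative to the centre, so the 2 kinds of region cannot be compared directly. These counts come from 1 list and were noticed in it, and their cause was not tested.

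The quotients of side to main fold enrichment repeated a few values. Apart from 48 members at 1, the commonest to 4 decimals were 0.9091 in 17 members, 0.6667 in 14, 0.75 in 14 and 0.9167 in 13, out of 867 different values.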
